A study of Mus musculus with 8 samples.

Results

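The genes of the NADPH oxidase complexes were read in lung RNA of control mice and of a COPD mice model, each with and without TJ-41. The set holds 9 of the 52636 genes in the deposited count tables. Its members were named as subunits of these enzymes, without a threshold on any value, at a time when earlier results of these data were known. Cybb, Cyba, Ncf1, Ncf4 and Rac2 form the phagocyte complex. Nox4, Noxa1, Duox1 and Duox2 are the epithelial and vascular members. A further 7 oxidase genes, namely Rac1, Nox1, Nox3, Noxo1, Duoxa1, Duoxa2 and Cybc1, were read beside them. RNA sequencing covered 8 libraries, split evenly over 4 groups of 2. PBS was given into the trachea of control mice. The COPD model received porcine pancreatic elastase (PPE) at 10 weeks of age and lipopolysaccharide (LPS) from 12 weeks of age. Either animal was fed a control diet or a diet with 2% TJ-41 (hochuekkito, a herbal medicine) from 8 weeks of age. All mice were wild type, and the study used male C57BL/6 mice. The age at which these lungs were taken is not given in the sources used here. Nothing in the labels says that replicates came from separate mice, so each p-value measures only the spread between libraries, which may be technical.

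NADPH oxidases move electrons from NADPH across a membrane onto oxygen and so make superoxide or hydrogen peroxide. The phagocyte enzyme has a catalytic membrane subunit, Cybb, held with a smaller membrane subunit, Cyba. On activation the organizer Ncf1, the lipid-binding Ncf4, the GTPase Rac2 and other factors join it from the cytosol, which gives the respiratory burst of neutrophils and macrophages. Nox4 also pairs with Cyba but is active without cytosolic partners, and is known from endothelium, smooth muscle and fibroblasts. Nox1 uses Noxo1 as organizer and Noxa1 as activator. Duox1 and Duox2 make hydrogen peroxide at the surface of airway epithelium and need the maturation factors Duoxa1 and Duoxa2. In the lung these enzymes are studied as sources of oxidants in airway inflammation.

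Libraries held 18767295 to 20888042 counts. Levels are given as CPM, counts scaled to a common library size after TMM adjustment of library sizes. Lung markers were present in every library, with Sftpc at 9504 to 25921 CPM, Scgb1a1 at 11580 to 28870 CPM, Ager at 1413 to 2627 CPM and Pecam1 at 758 to 942 CPM, and the heart muscle gene Myh6 stood at 99.5 to 254 CPM. The pair of COPD model libraries on the control diet stood apart. Its log2 replicate differences had an SD of 0.798 over genes, against 0.394 to 0.469 in the other groups, and they followed the GC content of the genes (Spearman's rank correlation 0.509 over 20517 genes, replicate 2 over replicate 1, against -0.354 to 0.0106 in the other groups). Replicate 1 held 999.6 CPM of 5 leukocyte markers and replicate 2 held 601 CPM, while the other 6 libraries held 795 to 841 CPM. In bulk lung RNA, fewer cells of a type and less RNA per cell cannot be told apart. Where results that rest on this pair change, they are given below without each of its libraries. That group then holds 1 library, which the fit assumes to vary like the other groups, so such adjusted p-values rest on the spread of those groups.

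Over the 16 oxidase genes, levels per length covered a wide range. On the scale of CPM per kb of exon, averaged over the 8 libraries, Cyba was highest at 70.1 ± 25.6 (SD, n = 8). Rac1, the widely expressed relative of Rac2, followed at 61.9 ± 6.29. Rac2 stood at 28.8 ± 4.42, Cybb at 26.9 ± 7.78, Nox4 at 17.2 ± 2.91 and Ncf1 at 13.2 ± 1.66. Of the remaining members, Ncf4 stood at 7.49 ± 0.786, Noxa1 at 1.18 ± 0.858, Duox2 at 0.257 ± 0.0919 and Duox1 at 0.0293 ± 0.0413. The ranges of neighbours in this order did not overlap only between Rac1 and Rac2, between Cybc1 and Ncf4, between Ncf4 and Noxa1, and between Noxo1 and Duox2. The 5 phagocyte members therefore lay above Noxa1, Duox1 and Duox2 in mean level, and Nox4 lay among the phagocyte genes.

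**Figure D1:**
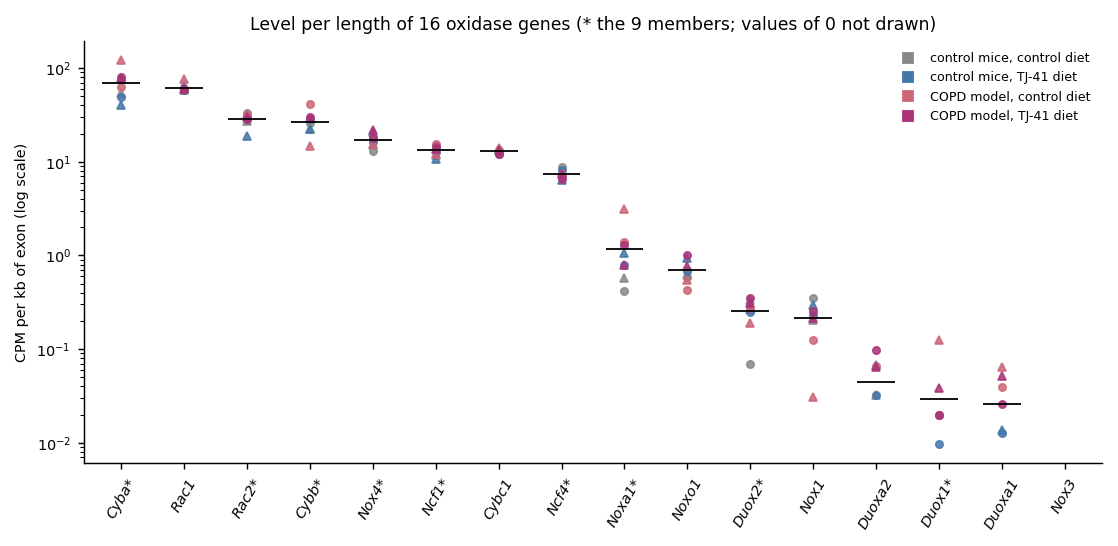
Level per length (CPM per kb of exon, log scale) of 16 oxidase genes in 8 libraries, with colours for the 4 groups, circles for replicate 1, triangles for replicate 2 and bars for the mean of all 8. The 5 phagocyte members and Nox4 lie between 7.49 and 70.1 on average, while Noxa1, Duox2 and Duox1 lie at or below 1.18.

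Cybb, the catalytic subunit of the phagocyte oxidase (ENSMUSG00000015340, GRCm38 chrX:9435252-9487771, minus strand), gave 151 and 130 CPM in control mice on the control diet, 166 and 132 CPM in control mice on TJ-41, 241 and 84.8 CPM in the COPD model on the control diet, and 175 and 171 CPM in the COPD model on TJ-41. The COPD model on the control diet held both the highest and the lowest of the 8 values. Cyba, its membrane partner (ENSMUSG00000006519, chr8:122424776-122432930, minus strand), gave in the same order 77.3 and 55.7, 50.8 and 41.9, 64.8 and 127, and 83.9 and 81.0 CPM. Here the highest value came from the library in which Cybb was lowest. Per length, Cyba stood 1.50 to 2.85 times above Cybb in 7 libraries and 8.38 times above it in replicate 2 of the COPD model on the control diet. The Cyba exons hold 1039 bases with 59.3% GC, and the Cybb exons hold 5808 bases with 42.4% GC. The difference between the 2 replicates of that group followed GC content over all genes, as given above. Replicate 2 held the lowest summed leukocyte markers of the 8 libraries. It also held the highest summed alveolar macrophage (1683 CPM) and interstitial macrophage markers (226 CPM). The part of GC content or of cell composition in the split of the 2 subunits was not tested.

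**Figure D2:**
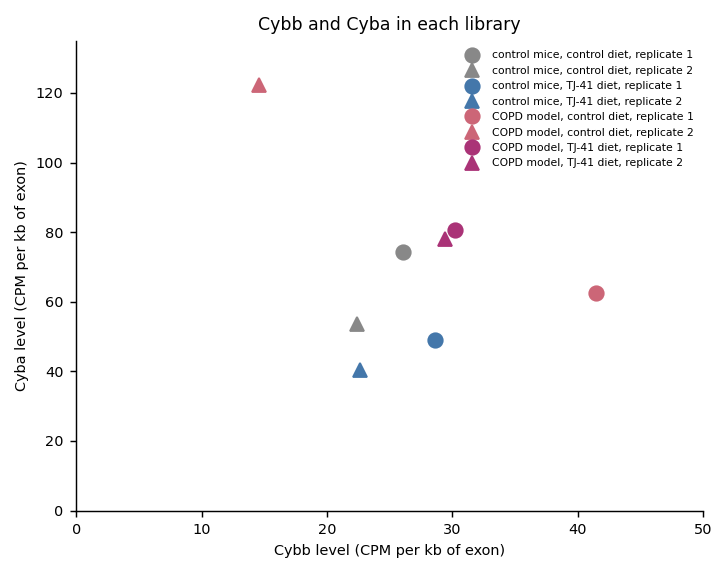
Level per length of Cyba (vertical axis, CPM per kb of exon) against Cybb (horizontal axis, same unit) in each of the 8 libraries, coloured by group. Replicate 2 of the COPD model on the control diet lies alone at high Cyba and low Cybb, with a ratio of 8.38, while the other 7 libraries have ratios of 1.50 to 2.85.

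The promoters of the 2 membrane subunits are shown because their levels parted in 1 library, and that of Noxa1 because it gave the largest difference between COPD model and control mice among the members tested. Each window runs from 250 bases before to 50 bases after the RefSeq start in GRCm38.p6, read along the minus strand of the gene. RefSeq windows were found for 7 of the 9 members. Capitals mark matches to 4 motifs searched on both strands, none of which overlapped in these windows: the PU.1 core GAGGAA (in 28.3% of 32851 promoters of the same length), the CCAAT box (37.4%), the GC box GGGCGG (35.7%) and the TATA box TATAAA (13.6%). Cybb lies at chrX:9469275-9469574, Cyba at chr8:122432891-122433190 and Noxa1 at chr2:25095156-25095455, and the RefSeq start of Cybb falls inside the GENCODE bounds of the gene given above.
Cybb: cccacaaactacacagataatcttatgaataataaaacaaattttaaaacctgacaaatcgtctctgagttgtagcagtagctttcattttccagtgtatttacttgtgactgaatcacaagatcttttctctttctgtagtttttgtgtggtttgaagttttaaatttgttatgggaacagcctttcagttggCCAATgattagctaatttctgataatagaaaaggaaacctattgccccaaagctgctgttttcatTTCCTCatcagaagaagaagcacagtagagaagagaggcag
Cyba: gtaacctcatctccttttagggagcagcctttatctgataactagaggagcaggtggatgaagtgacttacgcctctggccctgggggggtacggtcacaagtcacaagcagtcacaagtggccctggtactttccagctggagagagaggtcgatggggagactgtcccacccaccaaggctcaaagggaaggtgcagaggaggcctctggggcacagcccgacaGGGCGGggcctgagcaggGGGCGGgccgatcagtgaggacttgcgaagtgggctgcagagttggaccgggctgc
Noxa1: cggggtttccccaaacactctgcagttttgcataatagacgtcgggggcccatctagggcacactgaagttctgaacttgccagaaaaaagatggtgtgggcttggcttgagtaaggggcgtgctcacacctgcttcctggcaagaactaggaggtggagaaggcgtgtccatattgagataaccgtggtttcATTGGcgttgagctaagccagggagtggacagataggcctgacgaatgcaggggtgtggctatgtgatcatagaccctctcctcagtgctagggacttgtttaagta
The Cybb window held 1 CCAAT box at position -56 from the start and 1 PU.1 core on the other strand at position 9. The Cyba window held 2 GC boxes, at -24 and -6. In the Noxa1 window 1 CCAAT box on the other strand stood at -57. These are matches of letters, and no binding was measured.

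The cytosolic subunits spread less. Ncf1 (ENSMUSG00000015950, chr5:134220053-134229625), the organizer, gave 54.5 and 43.7 CPM in control mice on the control diet, 46.2 and 39.4 on TJ-41, 57.2 and 44.0 in the COPD model on the control diet, and 52.3 and 50.2 on TJ-41. Ncf4 (ENSMUSG00000071715, chr15:78244801-78262580), which binds a membrane lipid, gave 17.8 and 15.9, 16.4 and 12.9, 14.7 and 15.1, and 13.3 and 14.98 CPM in the same order. Rac2 (ENSMUSG00000033220, chr15:78559167-78572783), the GTPase of blood cells, gave 103 and 84.1, 89.7 and 59.2, 97.2 and 100.2, and 88.6 and 93.1 CPM. The lowest Ncf1, Ncf4 and Rac2 values all came from replicate 2 of the control mice on TJ-41. Of the Ncf1 exon bases, 11.1% overlap Gtf2ird2 on the opposite strand, and the strand setting of the counting is not given in the sources used here. The summed level of the 5 phagocyte members ran from 285 to 475 CPM over the libraries. Set against leukocyte markers, Cybb gave 141 to 241 CPM and Rac2 74.4 to 167 CPM per 1000 CPM of these 5 markers. In replicate 2 of the COPD model on the control diet, this share was lowest for Cybb and highest for Rac2.

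Nox4 (ENSMUSG00000030562, chr7:87246096-87398710), the vascular and mesenchymal oxidase, gave 109 and 128 CPM in control mice on the control diet, 136 and 175 on TJ-41, 152 and 132 in the COPD model on the control diet, and 152 and 183 on TJ-41. In both animals the mean was higher on TJ-41, and in control mice the libraries of the diets did not overlap. Noxa1 (ENSMUSG00000036805, chr2:25085667-25095149), the activator of Nox1, was near the low end of what these libraries resolve, with 13 and 18 counts, 25 and 32 counts, 43 and 99 counts, and 40 and 25 counts. These gave 0.680 and 0.935, 1.28 and 1.73, 2.24 and 5.08, and 2.09 and 1.28 CPM. Both values of the COPD model on the control diet were above all others, and those of the control mice on the control diet were below all others. Duox2 (ENSMUSG00000068452, chr2:122279247-122298449) gave 0.471 and 2.28, 1.69 and 1.84, 1.88 and 1.28, and 2.40 and 2.10 CPM. Its lowest and second highest values were replicates of 1 group. Duox1 (ENSMUSG00000033268, chr2:122315672-122347972) gave 2 and 0, 1 and 0, 2 and 13, and 2 and 4 counts. Of its 24 counts, 13 came from replicate 2 of the COPD model on the control diet. A count of 0 allows up to 0.156 to 0.162 CPM in those libraries (3 counts, counting error only). The 2 Duox genes share 415 windows of 50 bases in their transcripts, 7.95% of those of Duox1, so a part of the Duox1 counts cannot be placed with certainty. Fitted without the filter on low counts, Duox1 had a log2 fold change between COPD model and control mice of 2.52 averaged over diets (unadjusted p = 0.0261, adjusted p = 0.492 in edgeR).

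**Figure D3:**
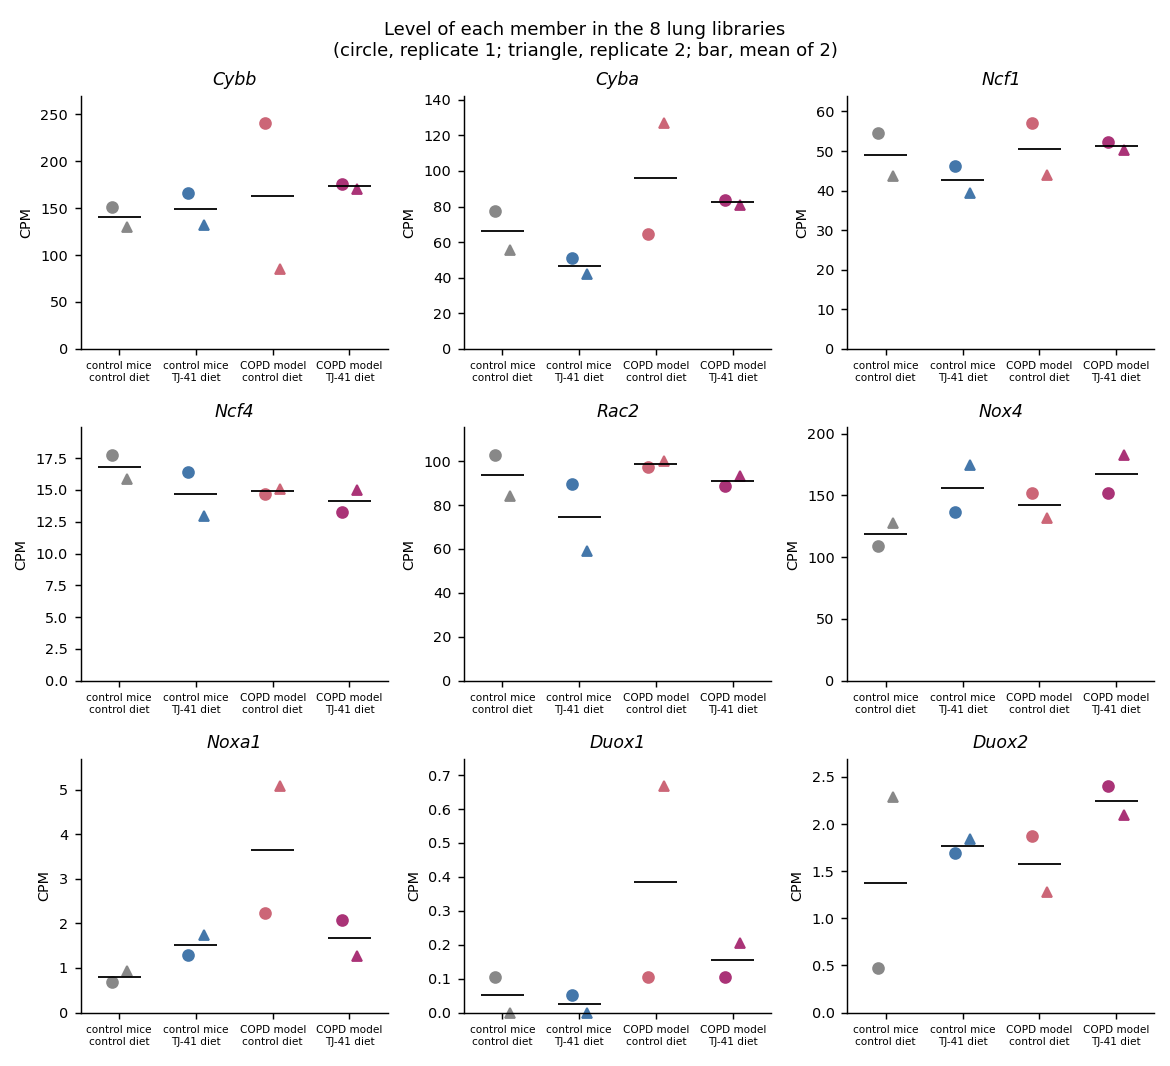
CPM (linear axes from 0) of each of the 9 members in 8 libraries, with the 4 groups on the horizontal axis, a circle for replicate 1, a triangle for replicate 2 and a bar for the mean of 2. Cybb in the COPD model on the control diet spans 84.8 to 241 CPM, wider than all other groups together, and Noxa1 reaches 5.08 CPM in that group.

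For the COPD model against control mice, the question was whether oxidase genes were higher after elastase and LPS. Cyba and Noxa1 showed the largest differences among members, and neither passed the threshold of the main test. Cyba averaged 89.2 ± 26.6 CPM (SD, n = 4) in the COPD model and 56.4 ± 15.05 CPM (n = 4) in control mice, a fold change of 1.60. Noxa1 averaged 2.67 ± 1.66 CPM against 1.16 ± 0.455 CPM, a fold change of 2.24. Of the 9 members, 8 passed the filter on low counts, and Duox1 did not and was not tested. No member was called as a differentially expressed gene (DEG, false discovery rate under 0.05 and log2 fold change beyond 1), where 0.443% of 20546 genes were. At an unadjusted p under 0.05, 2 members were higher and none lower, where 10.4% of all genes passed in either direction. In edgeR (quasi-likelihood test, p-values adjusted by Benjamini-Hochberg over all genes), averaged over both diets, Cyba had a log2 fold change of 0.68 (SE 0.21, 95% interval 0.21 to 1.15, adjusted p = 0.273). Noxa1 had 1.17 (SE 0.34, interval 0.39 to 1.94, adjusted p = 0.245 in edgeR). An exact permutation test of 4 libraries against 4, whose smallest p is 0.0286, gave p = 0.0571 for Cyba and p = 0.0857 for Noxa1 (two-sided). For none of the members did the 4 and 4 libraries separate without overlap, as 6.78% of all genes did. Without replicate 1 of the pair that stood apart, Noxa1 had 1.40 and Cyba 0.88, and without replicate 2 they had 0.82 and 0.40. Either way, that group then held 1 library. DESeq2 called no member in this or any other comparison, apart from Noxa1 on the control diet.

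The other members gave small differences with intervals on both sides of 0. On the log2 scale, averaged over both diets, Cybb had 0.21 (interval -0.40 to 0.83), Ncf1 0.15 (-0.15 to 0.46), Ncf4 -0.11 (-0.44 to 0.21) and Rac2 0.18 (-0.15 to 0.52). Nox4 had 0.18 (-0.12 to 0.49) and Duox2 0.27 (-0.66 to 1.20). The upper bounds lay under 1 for Cybb, Ncf1, Ncf4, Rac2 and Nox4, and above 1 for Duox2. Without replicate 1 of the pair that stood apart, Cybb had -0.26, and without replicate 2 it had 0.50. The median over the 8 members was 0.20, with 7 above 0, and over all genes tested it was -0.0017.

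On the control diet alone, Noxa1 had a log2 fold change of 2.17 (SE 0.49, interval 1.06 to 3.28, unadjusted p = 0.00164, adjusted p = 0.259 in edgeR). Cyba had 0.53 (SE 0.30) and Cybb 0.21 (SE 0.39). No member was called, where 0.122% of genes were. Noxa1 was the 1 member with an unadjusted p under 0.05, which 7.7% of genes had. The libraries of the groups did not overlap for 3 members, Noxa1 and Nox4 (higher) and Ncf4 (lower), as for 27.6% of genes. All of this rests on the pair that stood apart. Without replicate 1 of that pair, Noxa1 had 2.64 and Cybb -0.74, and without replicate 2 they had 1.47 and 0.78. Cyba had 0.93 without replicate 1 and -0.03 without replicate 2. With DESeq2 in place of edgeR, Noxa1 passed at 2.18 (adjusted p = 0.0291), and with no filter on low counts at 2.16 (edgeR, adjusted p = 0.0369). With a correction for exon length and GC content it stood at 2.03 and did not pass (edgeR, adjusted p = 0.152).

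On the TJ-41 diet, whose 4 libraries do not include that pair, Cyba gave 83.9 and 81.0 CPM in the COPD model against 50.8 and 41.9 CPM in control mice. The log2 fold change was 0.83 (SE 0.30, interval 0.16 to 1.50, unadjusted p = 0.0208, adjusted p = 0.665 in edgeR), a fold change of 1.78. That fit takes its spread from all 8 libraries. Without replicate 1 or replicate 2 of the pair that stood apart, Cyba had 0.84 each time (adjusted p = 0.0432 and 0.0373 in edgeR). Fitted on these 4 libraries alone, with their own spread, the same gene stood at 0.83 with an adjusted p of 0.0101 in edgeR, under the false discovery threshold and short of the fold threshold. Corrected for length and GC content, it stood at 0.48 (adjusted p = 0.431, edgeR), and the average over both diets stood at 0.45 (SE 0.10, adjusted p = 0.0763, edgeR). Noxa1 had 0.16 (SE 0.48), with overlapping libraries. No member was called, where 0.0779% of genes were, and Cyba was the 1 member with an unadjusted p under 0.05, as 6.56% of genes had. Cybb, Cyba, Ncf1 and Duox2 were higher in the COPD model without overlap, 4 of 8 members tested, where 56.5% of genes did not overlap in either direction.

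**Figure D4:**
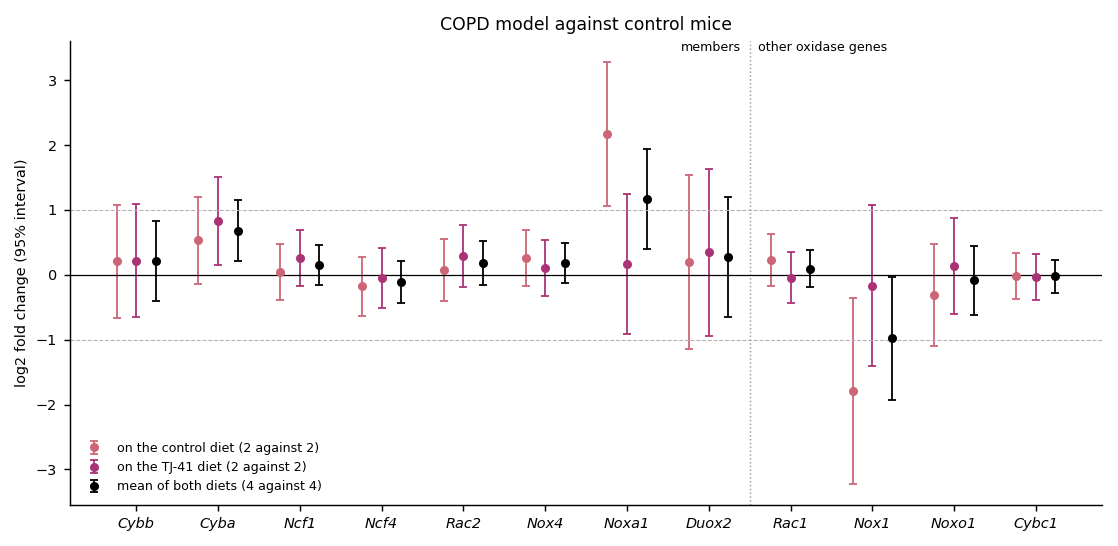
Log2 fold change, COPD model over control mice, of 8 members and 4 other oxidase genes that passed the filter, on each diet (2 libraries against 2) and averaged (4 against 4), with 95% intervals from the edgeR fit and dashed lines at 1 and -1. Noxa1 stands at 2.17 on the control diet and 0.16 on TJ-41, and Cyba at 0.53 and 0.83.

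For feeding with TJ-41, the question was whether the diet moved oxidase genes. Nox4 was the 1 member with an unadjusted p under 0.05 when both animals were averaged, at 161 ± 21.4 CPM (SD, n = 4) on TJ-41 and 130 ± 17.6 CPM (n = 4) on the control diet. Its log2 difference was 0.31 (SE 0.14, interval 0.01 to 0.62, unadjusted p = 0.0453, adjusted p = 0.973 in edgeR), a fold change of 1.24. The exact permutation test over 4 and 4 libraries gave p = 0.0857. It was 0.39 in control mice (interval -0.04 to 0.83) and 0.24 in the COPD model (interval -0.20 to 0.67). Cyba averaged 64.4 ± 21.2 CPM on TJ-41 and 81.2 ± 31.8 CPM on the control diet (log2 difference -0.37, interval -0.84 to 0.10). Without replicate 1 of the pair that stood apart, this was -0.58 (adjusted p = 0.0326 in edgeR), and Cybb had 0.55 (adjusted p = 0.0283), both short of the fold threshold. Without replicate 2, Cyba had -0.09 and Cybb -0.20. The remaining members lay between -0.22 (Rac2) and 0.43 (Duox2). No member was called, and 0% of all genes were. An unadjusted p under 0.05 was found for 2.48% of genes, and libraries without overlap for 1.38% of genes and for no member.

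In control mice, the phagocyte members other than Cybb had lower means on TJ-41, with log2 differences of -0.52 for Cyba, -0.33 for Rac2, -0.20 for Ncf1 and -0.20 for Ncf4, and all intervals crossed 0. The diets did not overlap for 3 of 8 members, Nox4 and Noxa1 (higher on TJ-41) and Cyba (lower), as for 38.2% of genes. No member was called (0% of genes), and no member had an unadjusted p under 0.05 (1.64% of genes). In the COPD model, Noxa1 gave 2.09 and 1.28 CPM on TJ-41 against 2.24 and 5.08 CPM on the control diet. The log2 difference was -1.12 (SE 0.46, interval -2.15 to -0.09, unadjusted p = 0.0368, adjusted p = 0.991 in edgeR). Again no member was called (0.00487% of genes), and Noxa1 was the 1 member with an unadjusted p under 0.05 (4.1% of genes). Noxa1 and Rac2 were lower and Duox2 higher on TJ-41 without overlap, 3 of 8 members, as for 29% of genes. Without replicate 1 of the COPD model on the control diet, Noxa1 had -1.59 and Cybb 1.03. Without replicate 2, they stood at -0.42 and -0.48, so which library stayed set the direction for Cybb. Either way, that group then held 1 library. These values share the COPD model libraries on the control diet with the comparison of COPD model and control mice above.

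**Figure D5:**
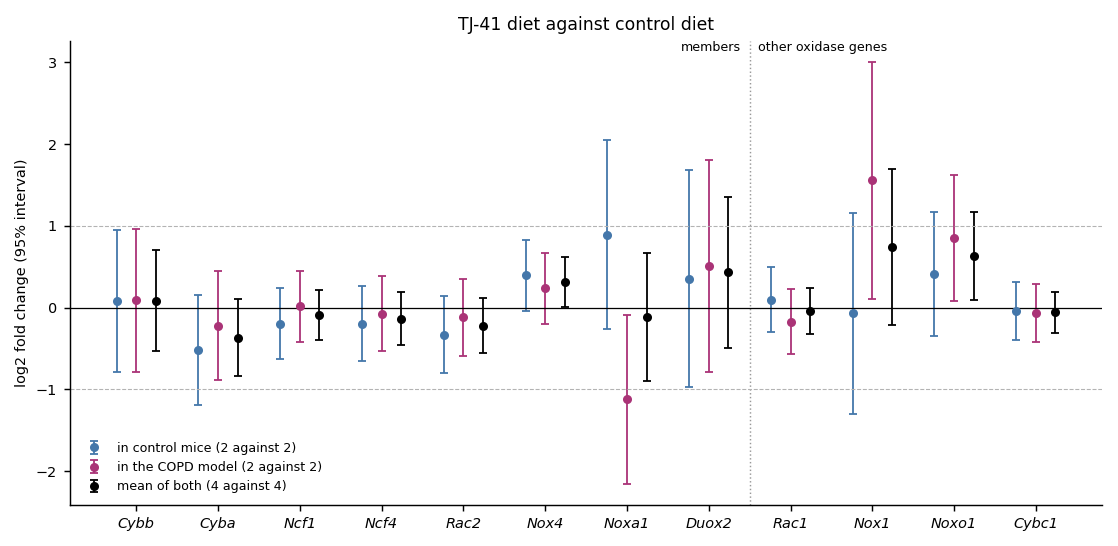
Log2 difference, TJ-41 diet over control diet, of 8 members and 4 other oxidase genes, in control mice and in the COPD model (2 libraries against 2) and averaged (4 against 4), with 95% intervals from the edgeR fit and dashed lines at 1 and -1. Nox4 lies above 0 in both animals (0.39 and 0.24), and Noxa1 lies at 0.89 in control mice and -1.12 in the COPD model.

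The difference between the diet effects in the 2 animals was tested as an interaction. Noxa1 had the largest value among members, -2.01 on the log2 scale (SE 0.69, interval -3.56 to -0.46, unadjusted p = 0.0165, adjusted p = 0.999 in edgeR). It was the 1 member with an unadjusted p under 0.05, where 3.27% of genes had one, and 0% of genes were called. For Cybb the interaction was 0.01 (interval -1.22 to 1.24), for Cyba 0.30 (-0.64 to 1.24) and for Nox4 -0.16 (-0.77 to 0.46).

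Among the other 7 oxidase genes, 4 passed the filter on low counts and none was called in any comparison. Nox1, the catalytic partner of Noxa1, gave 1.15 and 0.675 CPM in control mice on the control diet, 0.768 and 0.973 on TJ-41, 0.417 and 0.103 in the COPD model on the control diet, and 0.835 and 0.716 on TJ-41. It was lowest in the group in which Noxa1 was highest. The log2 fold change of Nox1 in the COPD model on the control diet was -1.79 (SE 0.63, unadjusted p = 0.0194, adjusted p = 0.518 in edgeR). This rests on 8 and 2 counts in the pair that stood apart, against 22 and 13 counts. On TJ-41 it was -0.17 (SE 0.55), with overlapping libraries. Of the Nox1 exon bases, 12.1% overlap Cstf2 on the opposite strand. The organizer Noxo1 gave 2.05 to 3.03 CPM on TJ-41 and 1.30 to 1.87 CPM on the control diet. It had 25 to 58 counts a library and did not overlap between diets, as for 1.38% of genes. Its log2 difference was 0.63 (SE 0.24, unadjusted p = 0.0267, adjusted p = 0.973 by the same edgeR test). Of the Noxo1 exon bases 70.4% overlap Tbl3 on the opposite strand, so its counts cannot be assigned with certainty. Rac1 (0.09) and the chaperone Cybc1 (-0.03) had small log2 fold changes between COPD model and control mice averaged over diets. Rac1 overlaps Daglb on the opposite strand over 51.4% of its exon bases. The maturation factors Duoxa1 and Duoxa2 gave 0 to 5 and 0 to 3 counts a library, and Nox3, the oxidase of the inner ear, was at 0 counts in all 8 libraries, which allows up to 0.153 to 0.162 CPM. The starts of Duox1 and Duoxa1 lie 1942 bases apart on opposite strands, and those of Duox2 and Duoxa2 lie 451 bases apart.

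The wider pathway was read from 4 lists, and with all 8 libraries no gene of any was called in any comparison. Of 20 regulators of oxidase assembly, 10 were above and 10 below 0 in the COPD model averaged over diets (median log2 fold change -0.02), none with an unadjusted p under 0.05. Vav3, an exchange factor for Rac proteins, had the largest value at -0.32, followed by Arhgdia, which holds small GTPases in the cytosol, at 0.30. Dropping replicate 1 of the pair that stood apart moved the median over the 20 regulators to -0.12, with 6 above 0. Dropping replicate 2 moved it to 0.05, with 11 above 0. Of 18 receptors that trigger the burst, 15 were above 0 (median 0.19), and 3 had an unadjusted p under 0.05, where 10.4% of all genes did. Itgb2, the shared chain of leukocyte integrins, had 0.54 (SE 0.17, adjusted p = 0.273 in edgeR), and Fcer1g, the signalling chain of Fc receptors, had 0.52 (SE 0.18, adjusted p = 0.344). The median over the 18 receptors fell to 0.07 (12 above 0) when replicate 1 of the pair that stood apart was dropped. It rose to 0.31 (15 above 0) when replicate 2 was dropped. Of 13 tested enzymes that use or remove superoxide and peroxide, all 13 were above 0 (median 0.41). The peroxiredoxins Prdx4 at 0.42 (SE 0.11, unadjusted p = 0.00476, adjusted p = 0.199 in edgeR) and Prdx1 at 0.53 (SE 0.22, unadjusted p = 0.0381, adjusted p = 0.446) were the 2 with an unadjusted p under 0.05 and are named after their values were seen. The superoxide dismutase Sod1 at 0.56 (SE 0.27, unadjusted p = 0.0666) and the glutathione peroxidase Gpx4 at 0.53 (SE 0.32, unadjusted p = 0.134) were not among them. Of these 13 genes, 12 were highest in replicate 2 of the COPD model on the control diet, with Sod1 at 49.5 CPM and Gpx4 at 27.6 CPM. Sod1 and Gpx4 are known to have processed pseudogenes of near-identical sequence, so their counts are uncertain. With the diets averaged over animals, all 13 were below 0 on TJ-41 (median -0.27), none with an unadjusted p under 0.05. Both counts share that library. Without it, 10 of 13 were above 0 in the COPD model (median 0.09), and 8 of 13 were above 0 on TJ-41 (median 0.01). The counts stayed at 13 above 0 and 13 below 0 without replicate 1 of the same group, while the medians moved to 0.60 and -0.55. Of 11 tested other sources of reactive oxygen, 4 were above and 7 below 0 in the COPD model averaged over diets. An unadjusted p under 0.05 was found for 1 higher and 2 lower. Ptgs2, the inducible cyclooxygenase, averaged 14.9 ± 8.01 CPM (SD, n = 4) in the COPD model and 28.7 ± 5.95 CPM in control mice (log2 fold change -1.07, SE 0.24, adjusted p = 0.121 in edgeR). It was -0.38 on the control diet (SE 0.33, unadjusted p = 0.278) and -1.75 on TJ-41 (SE 0.35, unadjusted p = 0.000646, adjusted p = 0.218 in edgeR), with an interaction of -1.37 (unadjusted p = 0.018, adjusted p = 0.999 in edgeR). Averaged over diets, Ptgs2 had -1.23 without replicate 1 of the COPD model on the control diet and -0.93 without replicate 2. On TJ-41 it stayed at -1.75 and -1.74 in the same order. Nos2, the inducible nitric oxide synthase, had 0.66 (SE 0.23, adjusted p = 0.344 by the same test). For TJ-41 averaged over animals, Cyp1a1 was the 1 gene of this list with an unadjusted p under 0.05, named after its values were seen. Its log2 difference was -5.32 (SE 1.23, unadjusted p = 0.00188, adjusted p = 0.973 in edgeR). It gave 171 and 147 CPM in 1 control-diet library of each animal and 1.43 to 5.45 CPM in all others.

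Markers of the cells that carry the phagocyte oxidase did not all move alike. The summed level of 9 alveolar macrophage markers was 669 to 830 CPM in control mice and 1020 to 1683 CPM in the COPD model, without overlap. The markers did not all lie on one side, since averaged over diets 6 were above 0 and 3 below, with an unadjusted p under 0.05 for 3 and 2 of them, and none was called. The 11 neutrophil markers summed to 185 to 285 CPM in control mice and 99.4 to 386 CPM in the COPD model. Among them, S100a8 stood at 12.7 to 83.8 CPM over the 8 libraries. The granule gene Camp (0.0519 to 0.157 CPM) and the surface antigen gene Ly6g (0.0541 to 1.02 CPM) were near 0. The 7 monocyte markers summed to 1124 to 1369 CPM and 1168 to 1585 CPM. For 7 interstitial macrophage markers the sums were 126 to 178 CPM in control mice and 177 to 226 CPM in the COPD model. Averaged over diets, 5 of these 7 were above 0 and 2 below (median log2 fold change 0.58). An unadjusted p under 0.05 was found for 3 above and 0 below, where 10.4% of all genes had one. The 5 plasma cell markers summed to 335 to 486 CPM in control mice and 599 to 1207 CPM in the COPD model. The 8 club and secretory cell markers summed to 14075 CPM in replicate 1 and 32566 CPM in replicate 2 of the COPD model on the control diet, the library with the highest Noxa1, Duox1 and Cyba, against 14989 to 23480 CPM in the other 6. That replicate 2 was also highest for summed alveolar type II markers, at 48213 CPM against 24487 to 37285 CPM. For alveolar type I markers it gave 4559 CPM against 2759 to 3803 CPM. The same held for alveolar and interstitial macrophage, smooth muscle, heart muscle and red cell markers. It was lowest for leukocyte (601 CPM), neutrophil (99.4 CPM) and B cell markers (147 CPM). Averaged over diets, 1 of the 5 plasma cell markers (Jchain) and 1 of the 8 club and secretory markers (Reg3g) were called, and none in the other 16 of 18 marker lists. No marker of these lists was at 0 in all libraries. The part of cell composition in the values of Cyba, Cybb and Noxa1 was not tested.

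For Cybb, Nox4 and Noxa1, the genes with the most similar profile were sought by Pearson's r of log2 CPM over the 8 libraries, as a description. For Cybb these included Lamp3 (r = 0.985) and Gm20707 (0.977). For Nox4 they were Pfkfb2 (0.978), Mmrn1 (0.962) and Abca1 (0.957), and for Noxa1 they were Cxcl2 (0.974), Megf11 (0.971) and Tmem212 (0.971). Lamp3, which marks alveolar type II cells and mature dendritic cells, ran from 701 CPM to 939 CPM in the 2 libraries in which Cybb was lowest and highest. Cxcl2, a neutrophil chemokine, reached 1.85 CPM in the library in which Noxa1 was highest and 0.262 to 0.649 CPM in the others. In these libraries 3 counts equal 0.153 to 0.162 CPM, so Cxcl2 was near the low end of what they resolve. The similar genes were picked for the highest r among 20546 genes. Over the 8 tested members, 28 pairs were compared. No pair passed after Benjamini-Hochberg adjustment of exact permutation p-values for Pearson's r, the smallest adjusted p being 0.304. Cybb and Cyba gave r = -0.36 (exact permutation p = 0.384, adjusted p = 0.743) and a Spearman's rank correlation of 0.0476 (exact p = 0.935). Without the 2 libraries farthest from the median of Cybb, r was 0.68, so the sign rests on those libraries.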

How the data were processed

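Per the labels, RNA was sequenced from 8 lung samples, and groups and replicate numbers came from the sample titles. The authors deposited raw read counts (whole numbers) for Ensembl genes. The submitters' processing notes name HISAT2, edgeR and mm10, and the study's methods name CLC Genomics Workbench. The counting program, annotation release and strand setting are not given in the sources used here. Of 52636 identifiers, 52489 were named with GENCODE M21 (GRCm38).

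Counts were filtered with filterByExpr (minimum count 10, total 15), which kept 20546 genes, scaled by TMM and fitted with edgeR 4.0.16 in R 4.3.3 (quasi-likelihood test, 4 group means, 4 residual degrees of freedom), with Benjamini-Hochberg adjustment over all genes kept. The threshold for a call was a false discovery rate under 0.05 with an absolute log2 fold change above 1, as in the study's methods. The scripts were tested on simulated data. Levels per length used GENCODE exon lengths. Intervals (95%) came from the same fit. Alternatives were DESeq2 1.42.0, other scalings and filters, only the groups compared, an additive model, a replicate block, a length and GC correction (loess), and leaving out each library. Replicate numbers were not used as pairs, since replicate differences correlated at -0.234 to 0.108 between groups. Named genes were all members and 7 other oxidase genes, the 2 genes of each pathway list with the largest log2 fold change averaged over diets, every called gene of these lists, and the 3 genes most similar to Cybb, Nox4, Noxa1 and Duox1 (Duox1 did not pass the filter). Values of some genes chosen by these rules are not reported here. The members and lists were chosen with earlier results of these data known.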

Additional observations from a re-analysis of the deposited data

Results flagged for a closer look

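The diet effect on Noxa1 ran in opposite directions in the 2 animals. Both control mice libraries on TJ-41 (1.28 and 1.73 CPM) were above both on the control diet (0.680 and 0.935 CPM), and both COPD model libraries on TJ-41 (2.09 and 1.28 CPM) were below both on the control diet (2.24 and 5.08 CPM). The difference between the effects was -2.01 on the log2 scale (unadjusted p = 0.0165, adjusted p = 0.999 in edgeR). It rests on 13 to 99 counts a library. Without replicate 2 of the COPD model on the control diet it was -1.29, and without replicate 1 it was -2.47.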

How the results depend on the processing

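No member was called in any of the 7 comparisons, and no alternative other than the ones named here called one. In the COPD model on the control diet, 1 member (Noxa1) was called with DESeq2 and 1 with all genes that had a count, and leaving out single libraries gave 0 to 1. Leaving out libraries gave 0 to 1 members (Noxa1) for the average over diets and 0 to 2 (Noxa1 and Cybb) for TJ-41 in the COPD model, each time without replicate 1 of the COPD model on the control diet. The exact permutation test gave 0 to 1 members under 0.05, with Ncf4 without replicate 2 of the control mice on TJ-41 (p = 0.0286, the smallest possible). Cyba in the COPD model on the control diet ranged from -0.034 to 0.929 on the log2 scale and changed sign without replicate 2 of that group. The cause was not tested. Averaged over diets, its adjusted p (edgeR or DESeq2, Benjamini-Hochberg) ranged over the alternatives from 0.00268 to 0.848. With the replicate block, 0 members were called, and the block changed no call of a member. Of 440 fold changes under alternatives other than leaving out a library, 9 changed sign, and of 448 with a library left out, 38 did. With the call rule on false discovery rate alone, no further member was called. The restriction to the groups compared does not apply to the interaction. Pathway lists without each library of the pair that stood apart were added after seeing the data. Of 20 regulators, 6 in place of 10 were then above 0 in the COPD model without replicate 1. Without replicate 2, the number above 0 on TJ-41 averaged over animals was 8 in place of 13 for the regulators, 4 in place of 9 for the receptors, 8 in place of 0 for the enzymes and 3 in place of 5 for the other sources.

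Counts over all genes moved more. For the COPD model on the control diet, 25 genes were called, 171 with DESeq2, 147 with all genes that had a count and 3 to 1343 with a library left out. On TJ-41 the counts were 16, 125, 89 and 2 to 168, with 26 after the length and GC correction and 248 with only the groups compared. Averaged over diets they were 91, 245, 278 and 15 to 873. For TJ-41 in control mice 0 genes were called by edgeR (336 at an unadjusted p under 0.05), 10 by DESeq2 and 5 when fitted on those groups alone. In the COPD model 1 was called, 12 by DESeq2, 2 with all genes that had a count, 0 with the replicate block, 0 with only the groups compared and 0 to 728 with a library left out. For the average over animals 0 were called by edgeR (509 at an unadjusted p under 0.05), 5 by DESeq2, 1 with all genes that had a count, 1 after the length and GC correction and 0 to 228 with a library left out. For the interaction 0 were called by edgeR (672 at an unadjusted p under 0.05), 17 by DESeq2, 6 with all genes that had a count and 0 to 14 with a library left out. With 2 libraries a group, and 24 counts in all for Duox1 and 295 for Noxa1, depth limits what can be said of both.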
